A study of Homo sapiens with 95 samples.

Results

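The comparison covered 18 of the 95 samples of a pooled RNA-seq experiment, the 9 samples of an NRG1-overexpressing line and the 9 samples of its HcRed control line that were exposed to 1 of 3 tobacco-related carcinogens. The cells were AALE, human bronchial epithelial cells that were immortalized and grow as a line. Libraries were made by sparse full length (SFL) sequencing, in which RNA of each sample is barcoded so that many samples are sequenced together. Samples were chosen by their labels alone, as every NRG1 or HcRed sample that received cigarette smoke condensate (CSC) at 24 μg/ml, benzo(a)pyrene (BaP) at 173 μM or the tobacco nitrosamine NNK at 490 μM, with 3 samples for each line and chemical. HcRed cells carried an empty vector with a fluorescent reporter, and NRG1 cells overexpressed NRG1. The 3 NRG1 and 3 HcRed samples with the solvent DMSO, and 26 carcinogen-exposed samples of lines that overexpressed NRF2, FGFR1 or PIK3CA, served as further references. The study describes the replicates as biological, with cells plated in multiwell plates for exposure. How many transduced populations were made is not stated in the sources used here, and the p-values below measure the spread between these samples. Any lasting difference between the 2 cell populations other than the transgene cannot be told apart from an effect of NRG1.

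Neuregulin 1, the product of NRG1, is a ligand of the EGF family. It binds the receptor tyrosine kinases ERBB3 and ERBB4, which signal mainly as pairs with ERBB2, and the receptor pair activates the RAS-ERK and PI3K-AKT pathways. In airway epithelium the ligand is made by epithelial cells and neighbouring mesenchymal cells, while ERBB2 and ERBB3 sit on the basolateral side of the epithelium and are engaged after injury. NRG1 gene fusions that keep the ligand domain occur in a subset of lung adenocarcinomas.

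The 18 libraries held 432015 to 1641129 counted reads, 941768 on average. A level is given as CPM, the read count scaled by library size, and 3 reads corresponded to between 1.83 and 6.94 CPM. Of 27978 genes listed, 14210 had a mean count above 1 over the 18 samples and were tested. The 9 epithelial markers (EPCAM, CDH1, KRT5, KRT14, KRT15, TP63, KRT18, ITGA6 and DSP) were all detected, with a summed level of 7930 to 11300 CPM in HcRed and 5710 to 7620 CPM in NRG1 samples. Markers of other cell types had fewer reads, most of them from COL1A1 (247 reads in the 9 HcRed and 166 in the 9 NRG1 samples) and CD68 (151 and 169 reads). The 8 fibroblast markers summed to 19.1 to 38.4 CPM in HcRed and 16.2 to 39.5 CPM in NRG1 samples, the 5 leukocyte markers to 5.46 to 31.9 and 13.9 to 42 CPM, the 4 endothelial markers to at most 2.82 and 3.76 CPM, and the 6 ciliated, secretory and alveolar markers to at most 6.9 and 3.76 CPM. No read was counted for LUM, CD3E, CDH5, SCGB1A1, MUC5AC, SFTPC or NKX2-1 in any of the 18 samples. The shallowest libraries were HcRed-BaP replicate 3, with 460538 reads, and HcRed-NNK replicate 3, with 432015. NRG1-BaP replicate 1 differed from the other 2 samples of its group in its dependence on GC content, with -0.107 log2 units per 10% of GC against 0.12 and 0.109. The HcRed-BaP samples had -0.0958, -0.163 and 0.0281, so replicates 1 and 2 of that group had the same sign as NRG1-BaP replicate 1. The CSC and NNK samples ranged from -0.0923 (NRG1-NNK replicate 3) to 0.137 (HcRed-CSC replicate 1).

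The transgene separated the lines in every sample. NRG1 had 3 to 34 reads in the 9 HcRed samples and 2536 to 9146 reads in the 9 NRG1 samples. As TMM-normalized CPM (after trimmed-mean scaling of library sizes), NRG1 was at 4740, 4990 and 5120 with CSC, 5650, 5220 and 4980 with BaP and 6100, 5820 and 6420 with NNK in the NRG1 line. The HcRed samples stood at 27.8, 13.8 and 32.6 with CSC, 17.6, 19.4 and 6.31 with BaP and 12.7, 13.6 and 27.6 with NNK. The fitted difference was 8.13 ± 0.15 on the log2 scale (SE; 9 against 9 samples). Outside the NRG1 line, the 83 remaining samples of the series had 2 to 380 NRG1 reads, so no other line approached this level.

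Over the 3 chemicals, 907 of 14210 genes (6.38%) differed between NRG1 and HcRed at an adjusted p under 0.05. The test was limma-voom with chemical as covariate, and 2713 genes (19.1%) had an unadjusted p under 0.05. Of the 907, 441 were higher in NRG1 (3.1%) and 466 were lower (3.28%). The median absolute difference of the called genes was 0.46 on the log2 scale, and 178 reached 1 or more, 81 upward and 97 downward. The median over all tested genes was close to 0, at -0.0025. All log2 values below are NRG1 over HcRed across the 3 chemicals unless another reference is named, with the SE after ±, and a gene is said to rise or fall only where it passed 0.05 in this fit.

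With 1 chemical at a time, in a fit of 6 groups, 188 genes differed with CSC (1.32%), 398 with BaP (2.8%) and 186 with NNK (1.31%). With CSC, 91 were higher (0.64%) and 97 lower (0.683%). With BaP, 228 were higher (1.6%) and 170 lower (1.2%). With NNK, 74 were higher (0.521%) and 112 lower (0.788%). In total 53 genes (0.373%) passed in all 3 chemicals with the same sign, 21 higher (0.148%) and 32 lower (0.225%). The 3 contrasts share no sample. By sample values alone, the lines did not overlap in any of the 3 chemicals, with the same sign, for 191 genes (1.34%), 95 of them higher (0.669%) and 96 lower (0.676%) in NRG1. The counts for single chemicals depended on individual libraries. The CSC count was 78 or 102 without HcRed-CSC replicate 1 or 2, and 113, 68 or 90 without NRG1-CSC replicate 1, 2 or 3. For BaP it was 198 or 185 without HcRed-BaP replicate 1 or 2, 735 without NRG1-BaP replicate 1 and 219 without NRG1-BaP replicate 2. For NNK it was 68 or 95 without HcRed-NNK replicate 1 or 2, and 108 or 118 without NRG1-NNK replicate 1 or 3. The number of genes common to all 3 chemicals was 35 without HcRed-NNK replicate 1 and between 36 and 54 without any other single library.

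**Figure D1:**
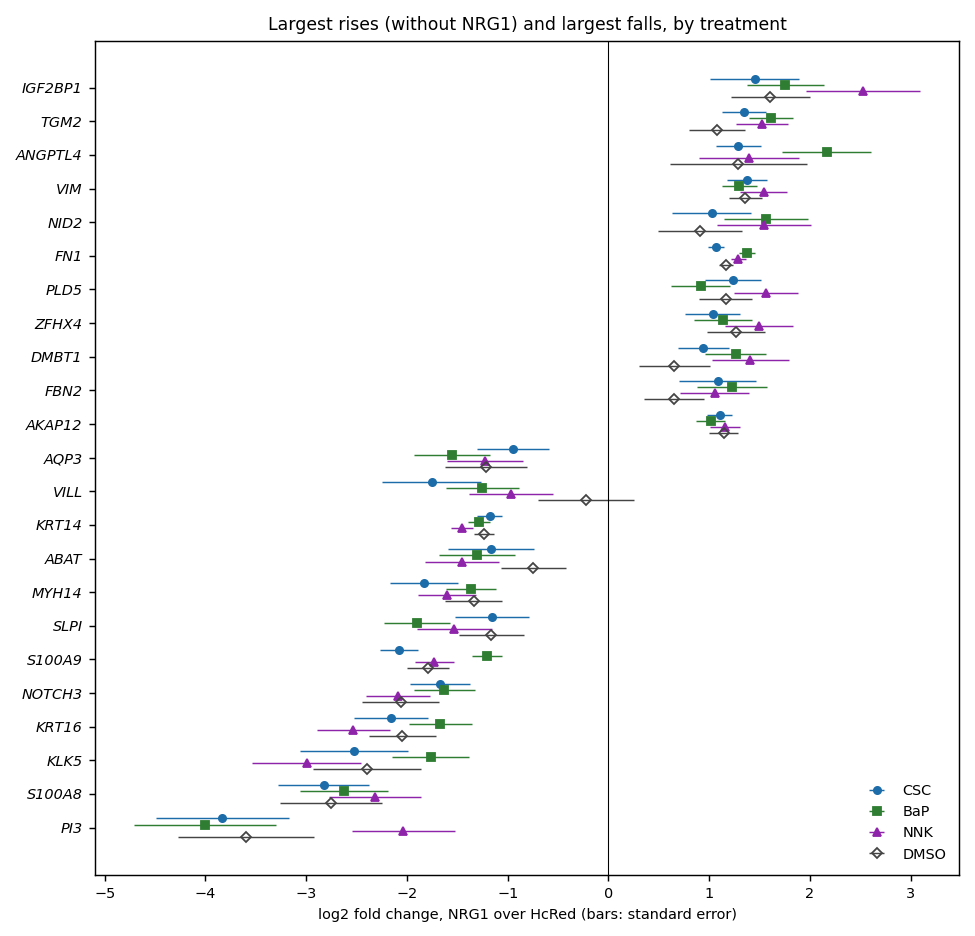
Log2 fold changes of NRG1 over HcRed (x axis, bars are standard errors) for the 11 largest rises after NRG1 itself and the 12 largest falls, with filled symbols for CSC, BaP and NNK and open diamonds for DMSO (3 against 3 samples each). These genes were picked because the lines did not overlap, with the same sign, in any of the 3 chemicals. Their direction with CSC, BaP and NNK was thus fixed by that choice. With DMSO, which was not used to pick them, rises also lie to the right of 0 and falls to the left. The DMSO value nearest 0 is that of VILL at -0.22.

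The largest rises after NRG1 among genes without overlap in any chemical included FN1, VIM and IGF2BP1. FN1, which encodes the matrix glycoprotein fibronectin, stood at 593, 614 and 661 CPM with CSC, 494, 563 and 454 with BaP and 741, 882 and 894 with NNK in HcRed. In NRG1 cells it stood at 1240, 1430 and 1260, then 1360, 1410 and 1220, and then 2080, 2240 and 1780 CPM. The lowest NRG1 sample lay above the highest HcRed sample across all chemicals, and FN1 rose 2.37-fold (1.24 ± 0.05, adjusted p = 4.1e-29). VIM, the intermediate filament vimentin of mesenchymal cells, ranged from 25.4 to 69.4 CPM in HcRed and from 78.5 to 122 CPM in NRG1, again without overlap. It rose 2.61-fold (1.39 ± 0.12). IGF2BP1, an mRNA-binding protein of fetal tissue and tumours, rose by 1.83 ± 0.26 from a median of 4.91 to one of 19.1 CPM. TGM2, a transglutaminase that crosslinks matrix proteins, rose by 1.498 ± 0.13 from a median of 25.4 to 77.9 CPM. ANGPTL4, a secreted inhibitor of lipoprotein lipase, rose by 1.48 ± 0.19. The remaining large rises were NID2 (1.36), PLD5 (1.23), ZFHX4 (1.19), DMBT1 (1.145), FBN2 (1.123) and AKAP12 (1.09).

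The largest falls included PI3, S100A8 and KLK5. PI3, which encodes the elastase inhibitor elafin, had 12.7 to 31.7 CPM in HcRed and 0 to 4.27 CPM in NRG1 samples, and 175 reads in the 9 HcRed samples against 17 in the 9 NRG1 samples. It fell by 3.14 ± 0.37 on the log2 scale. S100A8 and S100A9, the subunits of the antimicrobial protein calprotectin, had medians of 24.7 and 144 CPM in HcRed and 3.75 and 39.4 CPM in NRG1. Neither gene had overlapping ranges, and they fell by 2.60 ± 0.25 and 1.62 ± 0.11. SLPI, a second inhibitor of leukocyte elastase, fell by 1.57 ± 0.21, and the epidermal protease gene KLK5 by 2.31 ± 0.28. NOTCH3, a receptor of the Notch pathway, ranged from 49.4 to 153 CPM in HcRed and from 11.7 to 44.5 CPM in NRG1, and fell by 1.79 ± 0.18. MYH14, a nonmuscle myosin heavy chain, fell by 1.56 ± 0.16. The remaining large falls were KRT16, KRT14, ABAT (-1.32), VILL (-1.29) and the aquaporin gene AQP3 (-1.24).

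Promoters of SPRR1B, SPRR1A, SBSN, AREG and FN1, whose expression is described here, are shown because they hold 1 of 2 motifs. TGANTCA is the AP-1 motif bound by FOS and JUN family dimers, and TGACGTCA is the cyclic AMP response element (CRE). Both read the same on either strand, and neither contains the other. The motifs and the genes were picked after the expression values were known. Each line gives the 250 bases before the RefSeq start site on GRCh38.p14, 5′ to 3′ on the gene's strand, with motif matches in capitals. SPRR1B lies at chr1:153030953-153031202 (+), SPRR1A at chr1:152983831-152984080 (+), SBSN at chr19:35528312-35528561 (-), AREG at chr4:74444886-74445135 (+) and FN1 at chr2:215436069-215436318 (-).
SPRR1B: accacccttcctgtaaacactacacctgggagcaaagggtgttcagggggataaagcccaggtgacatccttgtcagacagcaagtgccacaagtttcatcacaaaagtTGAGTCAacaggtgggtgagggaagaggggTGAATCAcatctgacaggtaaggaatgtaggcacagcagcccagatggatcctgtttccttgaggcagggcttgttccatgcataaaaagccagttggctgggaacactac
SPRR1A: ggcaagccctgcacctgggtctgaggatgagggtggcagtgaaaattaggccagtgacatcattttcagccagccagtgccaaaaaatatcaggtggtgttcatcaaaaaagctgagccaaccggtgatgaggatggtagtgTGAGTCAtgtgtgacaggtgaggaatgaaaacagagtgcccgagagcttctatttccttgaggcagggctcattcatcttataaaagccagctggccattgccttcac
SBSN: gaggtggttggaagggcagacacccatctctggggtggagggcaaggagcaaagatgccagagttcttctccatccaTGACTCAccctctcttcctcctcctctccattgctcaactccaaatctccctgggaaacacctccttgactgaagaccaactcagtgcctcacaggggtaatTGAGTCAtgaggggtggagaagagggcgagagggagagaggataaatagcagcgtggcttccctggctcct
AREG: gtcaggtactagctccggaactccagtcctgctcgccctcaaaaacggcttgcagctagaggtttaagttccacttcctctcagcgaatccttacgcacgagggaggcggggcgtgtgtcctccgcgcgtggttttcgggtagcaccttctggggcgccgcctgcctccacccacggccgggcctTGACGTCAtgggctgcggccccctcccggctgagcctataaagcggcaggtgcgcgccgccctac
FN1: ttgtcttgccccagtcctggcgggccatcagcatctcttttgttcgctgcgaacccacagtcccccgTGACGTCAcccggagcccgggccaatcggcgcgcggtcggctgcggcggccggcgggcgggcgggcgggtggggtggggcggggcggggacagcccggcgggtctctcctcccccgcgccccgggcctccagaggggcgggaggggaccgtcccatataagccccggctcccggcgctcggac
The AP-1 match nearest the start site begins 111 bases before it in SPRR1B, 108 bases in SPRR1A and 71 bases in SBSN, and the CRE begins 65 bases before it in AREG and 183 bases in FN1. Over the 300-base windows that RefSeq starts define (250 bases before to 50 after), TGANTCA occurred in 7.71% of 35116 promoters and TGACGTCA in 1.85%. Of the 10569 tested genes with a promoter in the table, 7.19% held TGANTCA, against 9.42% of 329 genes that rose and 9.47% of 338 that fell. For TGACGTCA the shares were 3.73%, 3.95% and 3.25%. A match is a description of the letters and no evidence of binding.

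Among receptors and ligands, the NRG1 receptor ERBB3 fell and the EGF receptor ligands AREG and EREG rose. ERBB3 had 53.2, 47.6 and 35.6 CPM with CSC, 46.6, 38.1 and 54.7 with BaP and 50.8, 49.1 and 48.3 with NNK in HcRed. The NRG1 samples had 29.9, 29.4 and 21 CPM, then 29, 38.1 and 33.8, and then 33.9, 19.7 and 38.5. The 2 lines met only at 38.1 CPM with BaP, and ERBB3 fell by 0.65 ± 0.14 (adjusted p = 0.00116). Of its partners, EGFR (0.05 ± 0.04) and ERBB2 (-0.12 ± 0.09) did not pass 0.05. Of 8 listed genes of NRG1 and the ERBB receptors 6 were tested, and the receptor ERBB4 was not among them. NRG2 (0.79 ± 0.53) and NRG4 (-0.36 ± 0.38) were also not called, at low counts.

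EREG, the ligand epiregulin, had 58.9 to 130 CPM in HcRed and 101 to 183 CPM in NRG1, did not overlap within any chemical, and rose by 0.62 ± 0.09. AREG, the ligand amphiregulin whose CRE is shown above, rose by 1.03 ± 0.23. With CSC it had 22.1, 8.96 and 8.9 CPM in HcRed and 35.5, 29.4 and 27.2 CPM in NRG1, while with NNK it had 18.3, 6.82 and 16.1 CPM in HcRed and 8.49, 15 and 10.7 CPM in NRG1. The lines were apart with CSC and BaP and overlapped with NNK, yet the test of a difference between chemicals did not pass (adjusted p = 0.318). Without the 6 BaP samples, an alternative chosen after seeing the data, AREG was not called over the remaining chemicals (adjusted p = 0.0616, limma-voom). All 6 tested ligands of the EGF receptor had fitted values above 0, and 2 of the 6 passed. HBEGF, at 0.66 ± 0.23, did not.

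Of 16 tested members of a list of ERK feedback and response genes, 7 rose (SPRY4, PHLDA1, DUSP5, DUSP6, ETV4, DUSP4 and CCND1), none fell, 9 were not called, and the list's median was 0.41 against -0.0025 over all genes. DUSP6, a phosphatase that removes the activating phosphates of ERK, had 53.2, 56.5 and 75.2 CPM with CSC, 23.3, 28 and 25.2 with BaP and 12.7, 27.3 and 18.4 with NNK in HcRed. In NRG1 samples it had 86, 83.8 and 82.8, then 64.2, 46.2 and 45.1, and then 55.2, 51.5 and 48.1 CPM. Within each chemical the NRG1 samples were all above the HcRed samples, and DUSP6 rose by 0.83 ± 0.13. PHLDA1 rose by 0.92 ± 0.10, and it was the member that passed in all 3 chemicals. SPRY4, an inhibitor of receptor tyrosine kinase signalling, rose by 0.995 ± 0.19, and DUSP5, a nuclear ERK phosphatase, by 0.89 ± 0.15. The counts with single chemicals were 2 with CSC, 7 with BaP and 2 with NNK.

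**Figure D2:**
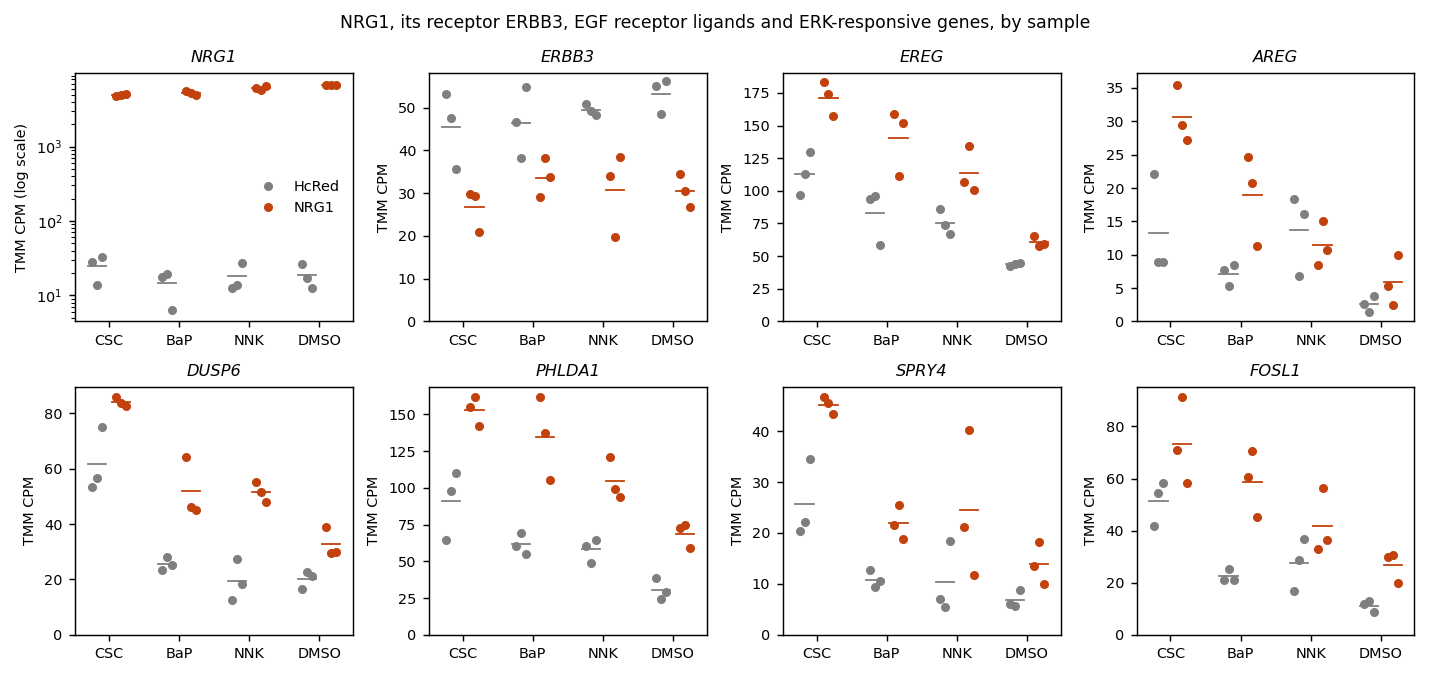
TMM-normalized CPM of NRG1 (log scale) and of 7 signalling genes (linear scales from 0) in each HcRed (grey) and NRG1 (orange) sample by treatment, with 3 samples a group and a bar at the mean. DUSP6 and PHLDA1 were higher in each NRG1 sample than in each HcRed sample of the same treatment, and ERBB3 lay lower, apart from a shared value of 38.1 CPM with BaP.

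Among AP-1 and immediate early genes, FOSL1, an AP-1 subunit that accumulates under sustained ERK activity, rose by 0.82 ± 0.14, from a median of 28.7 to one of 58.1 CPM. EGR1 rose by 0.20 ± 0.06 and FOS fell by 0.42 ± 0.11, and the other 12 of 15 tested members were not called. In the PI3K, AKT and FOXO list, IRS2, an adaptor of insulin and IGF receptors, rose by 0.79 ± 0.07 and passed in all 3 chemicals, with 137 to 212 CPM in HcRed and 235 to 356 CPM in NRG1. FOXO4 (-0.93) fell, and 16 of 19 members were not called. Of 16 adaptors and inhibitors of ERBB receptors, SHC1, which links the receptors to RAS, rose by 0.37 ± 0.06, and ERRFI1, which inhibits EGFR kinase activity, by 0.36 ± 0.08. RNF41, a ubiquitin ligase that degrades ERBB3, fell by 0.36 ± 0.12.

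Of 13 tested keratins, 7 fell and none rose, with a median of -0.68. In bulk RNA, fewer cells of a type and less RNA per cell cannot be told apart. The type I keratin genes that lie side by side on chromosome 17 of GRCh37, KRT14 (39738531 to 39743147), KRT16 (39766030 to 39772151) and KRT17 (39775694 to 39781094), all fell in each of the 3 chemicals. KRT14, a keratin of basal cells, had 377, 323 and 327 CPM with CSC, 382, 373 and 358 with BaP and 628, 525 and 499 with NNK in HcRed. It had 163, 160 and 136, then 162, 166 and 126, and then 221, 184 and 206 CPM in NRG1. The highest NRG1 value was below the lowest HcRed value, and KRT14 fell by 1.32 ± 0.07 (2.49-fold, adjusted p = 1.18e-23). KRT16 and KRT17, keratins of stressed and regenerating epithelium, fell by 2.10 ± 0.20 and 1.15 ± 0.05, and KRT5, the partner of KRT14, by 0.55 ± 0.03. KRT6B (-1.68), KRT15 (-0.88) and KRT7 (-0.79) also fell, whereas KRT8 (0.12 ± 0.09) and KRT18 (0.21 ± 0.08) of simple epithelia were not called. Of the 9 epithelial markers named above, 6 fell, DSP of the desmosome by 0.61 ± 0.03 and CDH1 by 0.20 ± 0.05 among them. TP63, the transcription factor of basal cells, was at -0.20 ± 0.07 and was not called.

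Cornified envelope genes, which crosslink the outer layer of squamous epithelium, showed the largest median of any list. Of 23 listed genes 10 were tested, 8 fell, none rose, and the median was -1.75, unchanged when SPRR1A was set at the bound below. The list and its falls include S100A8 and S100A9, already given among the largest falls. SPRR1B, a small proline-rich envelope precursor, had 24.5, 24.8 and 19.8 CPM with CSC, 16.9, 10.7 and 10.5 with BaP and 9.87, 16.4 and 16.1 with NNK in HcRed. The NRG1 samples had 5.61, 4.41 and 0, then 1.85, 0 and 1.88, and then 5.3, 1.87 and 0 CPM. No NRG1 sample reached an HcRed sample, and SPRR1B fell by 3.10 ± 0.38. SPRR1A had 28 reads in the 9 HcRed samples and none in the 9 NRG1 samples, which makes it at least 8.46-fold lower against 3 reads over the group. SBSN, or suprabasin, fell by 2.41 ± 0.36. The transglutaminase TGM1, KRT1 and CNFN also fell, by 1.48 ± 0.29, 1.81 ± 0.54 and 1.68 ± 0.47. KRT1 and CNFN rest on few reads, with means of 1.39 and 2.28 per sample. IVL (-1.38 ± 0.48) and KRT10 (-0.36 ± 0.12) were not called. Of the 8 tested members with a promoter in the table, 4 held TGANTCA, SPRR1B, SPRR1A and SBSN among them.

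Of 18 tested mesenchymal, matrix and protease genes, 10 rose and 2 fell, with a median of 0.47. Besides VIM and FN1, CDH2, the N-cadherin of mesenchymal cells, rose by 1.48 ± 0.29 from 1.36 to 13.8 CPM in HcRed to 7.35 to 18.2 CPM in NRG1, with overlap only at the highest HcRed sample, HcRed-NNK replicate 3. VIM and FN1 passed in all 3 chemicals. Of the transcription factors of epithelial to mesenchymal transition, SNAI2 (0.36 ± 0.08), TWIST1 (0.70 ± 0.18) and ZEB1 (1.10 ± 0.34) rose, and ZEB2 (1.14 ± 0.46) was not called. SPARC (-0.57 ± 0.13) and TGFBI (-0.40 ± 0.04), both matrix proteins, fell. The summed fibroblast markers given above overlapped between the lines.

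**Figure D3:**
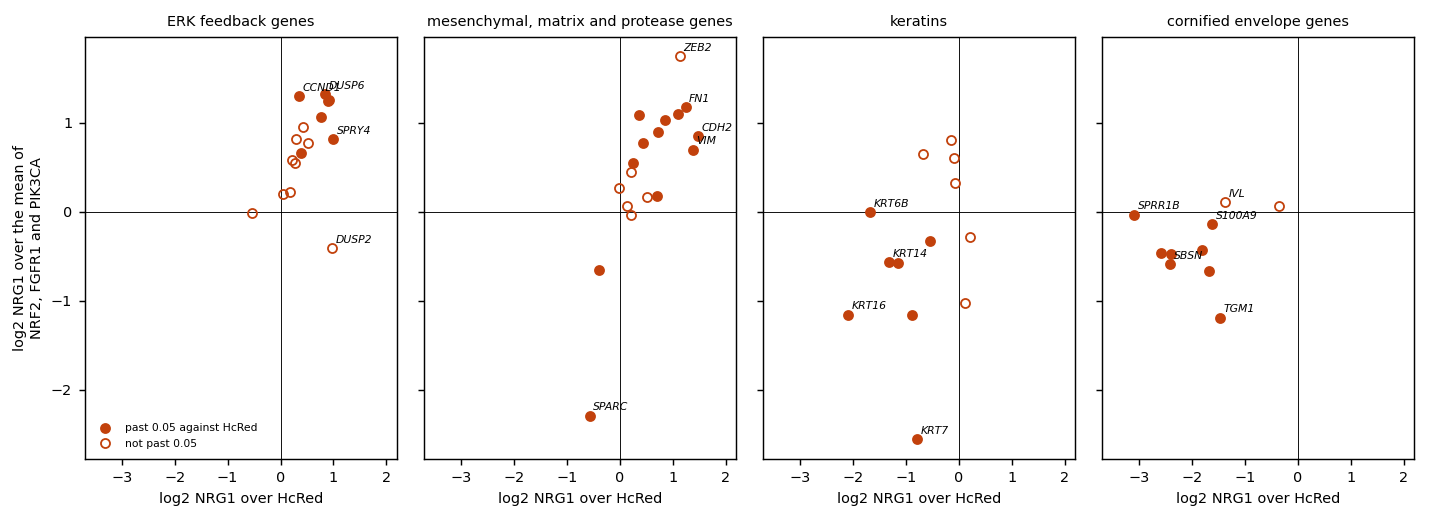
Log2 difference of NRG1 over HcRed (x axis) and over the mean of the NRF2, FGFR1 and PIK3CA lines (y axis) for the tested members of 4 lists, each point a gene, filled where it passed 0.05 against HcRed. ERK feedback genes lay mostly above 0 on both axes, while cornified envelope genes had a median of -1.75 on the x axis and -0.45 on the y axis, where TGM1 was lowest at -1.19.

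With the other overexpression lines as reference, in which 3716 genes were called (26.2%; 1919 or 13.5% higher and 1797 or 12.6% lower), the groups behaved differently. This contrast shares its 9 NRG1 samples with the one above but none of its reference samples. Of the ERK feedback genes, 13 of 16 were higher in NRG1 and none lower, with a median of 0.79. Of the mesenchymal genes 12 of 18 were higher and 2 lower, with a median of 0.63. This reference is a mean of 3 lines that differed among themselves. The median of VIM was 147 CPM in PIK3CA and 92.2 in FGFR1 against 99.3 in NRG1 and 17.1 in NRF2, and that of FN1 was 1630 in PIK3CA and 1040 in FGFR1 against 1410 in NRG1 and 258 in NRF2. CDH2 had a median of 19.4 CPM in PIK3CA and 11.1 in NRG1. Of the 10 cornified envelope genes 1 was lower (TGM1, -1.19 ± 0.25) and none higher. SPRR1B stood at -0.03 and S100A9 at -0.14 in this contrast, with neither called. The levels of S100A9, normalized over the 44 samples of the 5 lines, had a median of 144 CPM in HcRed and 173 in NRF2, against 39.4 in NRG1, 27.8 in FGFR1 and 25.8 in PIK3CA. The FGFR1 range was 17.8 to 32 CPM (8 samples), the PIK3CA range 20.4 to 39.3 (9 samples) and the NRG1 range 31.9 to 66.3 (9 samples). S100A9 was thus low in 3 of the 5 lines.

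SPRR1B was likewise lower in these 3 lines than in HcRed, with medians of 16.7 CPM in HcRed, 8.57 in NRF2, 1.88 in NRG1 and 0 in both FGFR1 and PIK3CA. For DUSP6 the median was 55.4 CPM in NRG1 and 53.7 in PIK3CA, against 27.8 in HcRed, 15.4 in NRF2 and 14.1 in FGFR1. CCND1, or cyclin D1, had its highest median in NRG1, at 237 CPM, with 182 in HcRed, 153 in PIK3CA, 68.8 in NRF2 and 62.8 in FGFR1. Against the other lines it was 1.30 log2 units higher, and against HcRed 0.35 ± 0.07. KRT7 had its lowest median in NRG1, at 129 CPM, with 201 in HcRed and 534 to 1050 in the other lines. Of the 13 keratins, 8 were lower and 3 higher than in the other lines. The lower ones included KRT8 (-1.03) and KRT18 (-0.28), which were not called against HcRed. Single lines came close to NRG1 or lay below it. KRT17 had medians of 848 CPM in NRG1, 685 in PIK3CA, 1250 in FGFR1 and 2130 in NRF2. KRT16 had 10.6, 10.1, 24.7 and 56.2 CPM in the same order, and KRT14 163, 237, 174 and 296 CPM. KRT6A, at -0.10 ± 0.03 and not called against HcRed, was 0.61 higher in NRG1 than in the other lines.

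TERT, outside the naming rule and picked after its values were seen, was among the 32 genes that fell in all 3 chemicals, by 0.92 ± 0.07. AALE cells carry an introduced TERT gene, so its reads need not come from the native locus. It ranged from 357 to 619 CPM in HcRed and from 174 to 385 CPM in NRG1, and its medians were 848 in NRF2, 526 in FGFR1 and 1530 in PIK3CA. All 9 PIK3CA samples, at 1180 to 1800 CPM, lay above all other samples of the 5 lines. Its level thus differed between the lines by more than between HcRed and NRG1.

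Of 5 tested AhR targets, which respond to polycyclic aromatic hydrocarbons, 3 fell. CYP1A1 had 442, 357 and 220 CPM with CSC, 236, 260 and 326 with BaP and 38.1, 32.8 and 46 with NNK in HcRed. The NRG1 samples had 183, 171 and 252, then 162, 188 and 227, and then 52, 49.7 and 51.3 CPM. All HcRed samples were above the NRG1 samples with BaP, the lines overlapped with CSC, and with NNK the HcRed samples were below, where the fitted difference of 0.42 ± 0.31 was not called. Over the 3 chemicals CYP1A1 fell by 0.51 ± 0.11 (adjusted p = 0.000799, and 0.295 by DESeq2). ALDH3A1, an aldehyde dehydrogenase, fell by 1.32 ± 0.17 and in each of the 3 chemicals, but was 0.79 above the mean of the other lines. Its median was 19.2 CPM in NRG1, 23.4 in NRF2, 18.7 in FGFR1 and 3.14 in PIK3CA, so NRG1 was not above each of them. CYP1B1 fell by 0.31 ± 0.06 (not called by DESeq2, nor by limma-voom without the 6 BaP samples, with an adjusted p of 0.0983), and AHRR and TIPARP were not called.

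Of the 11 tested ATF4 targets, which serve amino acid supply under stress, 5 rose and none fell, with a median of 0.30. The largest were CHAC1 (0.89 ± 0.19) and TRIB3 (0.58 ± 0.12), and PSAT1 of serine synthesis (0.55 ± 0.07) rose in all 3 chemicals. Some members of the other lists passed, where 6.38% of all genes tested did. They were SLC7A11 up and TKT down of 20 NRF2 targets, GDF15 and PLK3 up of 21 p53 targets, and BUB1, AURKA and PLK1 down of 22 replication and mitosis genes. IL1A rose among 11 IL-1 and NF-kB genes, IFI27 rose and IRF7 fell among 18 interferon-stimulated genes, and HMGCS1 rose among 15 sterol and fatty acid synthesis genes. The mitochondrial ribosomal RNAs RNR1 and RNR2 rose among 6 structured RNAs, by 0.23 ± 0.06 and 0.32 ± 0.06. Medians of these lists lay between -0.08 and 0.41. Of 71 called genes that met the naming rule, 56 stayed called without any single library. The other 15 included EGR1, FOS, FOXO4, GDF15, IFI27, IL1A, IRF7, PLK1, PLK3, RNF41, RNR1, TKT and ZEB1, and the highest adjusted p was 0.295 for RNF41 without NRG1-BaP replicate 1.

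With the solvent DMSO alone, 130 genes differed between NRG1 and HcRed (0.915%), 69 higher (0.486%) and 61 lower (0.429%). The contrast compared 6 samples outside the comparison. Its fit held 24 samples, so the estimate of spread was shared with the 18 carcinogen samples. Of the 130, 111 were called with the same sign over the 3 chemicals, and no gene was called with opposite signs. Of the 441 genes that rose, 411 had a fitted value above 0 with DMSO and 60 were called. Of the 466 that fell, 427 had a value below 0 and 51 were called. Among the 53 genes common to all 3 chemicals, all 21 higher and all 32 lower genes kept their sign with DMSO, and 19 and 27 of them were called. FN1 was at 1.17 with DMSO, VIM at 1.36, KRT14 at -1.23 and S100A9 at -1.79. Exceptions among the common genes that did not pass with DMSO included DMBT1 (0.65), IRS2 (0.40), TGFBI (-0.08) and ALDH3A1 (-0.71). The DMSO count was 80 or 84 without HcRed-DMSO replicate 1 or 3.

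A test of whether the mean effect with carcinogens differed from that with DMSO called 0 genes by limma-voom or DESeq2 and 3 by edgeR. By limma-voom, 612 of the 14210 genes (4.31%) had an unadjusted p under 0.05.

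Effects of a single chemical were few. The moderated F test of the line by chemical interaction called 14 genes (0.0985%). The effect with BaP differed from the mean of the other 2 chemicals for 25 genes (0.176%), 18 higher (0.127%) and 7 lower (0.0493%). That with NNK differed for 7 (0.0493%), 2 higher (0.0141%) and 5 lower (0.0352%). That with CSC differed for 0, with 777 genes (5.47%) at an unadjusted p under 0.05 by limma-voom. For CSC, edgeR called 1 gene and DESeq2 0. A gene counted for 1 chemical only (BaP-only or NNK-only) where it passed in that chemical and in this difference with the same sign. The rule asked for a larger effect with that chemical and did not require that the gene be uncalled with the others. By that rule 15 genes were higher and 4 lower with BaP only (0.134% in all), 1 was higher and 3 were lower with NNK only (0.0281%), and none was particular to CSC. Of the 471 genes called in exactly 1 chemical, 17 met the rule. RPPH1 counted for both BaP and NNK, in opposite directions, and CYP1B1 counted for BaP although it also fell with CSC.

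These counts moved with single libraries. Without NRG1-BaP replicate 1 the interaction test called 338 genes, the BaP difference 530 and the NNK difference 45. The BaP difference called 63 without HcRed-BaP replicate 3, and 3 to 16 without HcRed-BaP replicate 1 or 2, any HcRed-NNK sample, NRG1-BaP replicate 2 or 3, NRG1-CSC replicate 1 or 3 or NRG1-NNK replicate 3. The interaction test called 27 without HcRed-BaP replicate 3, and 7 to 9 without HcRed-BaP replicate 2, HcRed-NNK replicate 2 or 3, NRG1-BaP replicate 2, NRG1-CSC replicate 3 or NRG1-NNK replicate 3. The NNK difference called 0 without NRG1-NNK replicate 3, and 3 or 4 without any one HcRed-NNK sample. Except for RPPH1 with BaP, each effect of 1 chemical reported here under the naming rule lost its call without at least 1 library. The adjusted p by limma-voom reached 0.451, for ANKRD26 without NRG1-BaP replicate 2. PLEC, named below outside that rule, was not part of this check. RPPH1 with BaP lost its call in 1 of 25 recomputed settings, which was not a left-out library. With NNK, RPPH1 lost its call in 5 of 25 settings and RNR2 in 2 of 25.

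The BaP-only genes moved with GC content. Among the 16 of 19 with a known GC content, the 4 that were lower had 34.3% to 44% GC and the higher genes had 50.8% to 67%. PLEC, which encodes the cytoskeletal linker plectin at 67% GC, had 3920, 3470 and 4000 CPM in HcRed-BaP and 4520, 5600 and 5100 CPM in NRG1-BaP, a difference of 0.48 ± 0.07 from the other chemicals. After a loess correction of each sample for GC content and exon length it was at 0.07. Under this correction 15 of the 16 genes were no longer called. The 1 NNK-only gene with a known GC content, KRT19, was not called under it (adjusted p = 0.758). By contrast 855 of 870 genes called over the 3 chemicals, and 50 of 52 common genes, stayed called the same way.

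**Figure D4:**
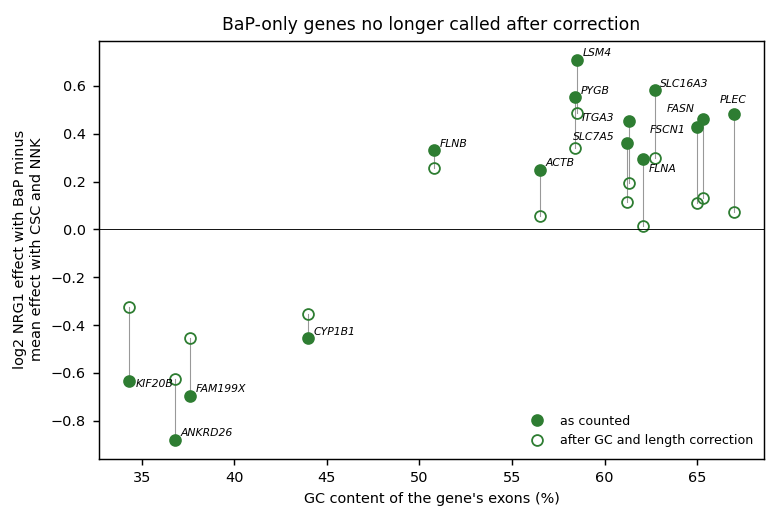
The NRG1 effect with BaP minus the mean effect with CSC and NNK (y axis, log2) against exon GC content (x axis, %) for the 15 BaP-only genes that were no longer called after correction for GC content and length, each gene before (filled) and after (open) the correction. The open points lie nearer 0, as for PLEC at 67% GC, which moved from 0.48 to 0.07.

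Among genes by chemical, RPPH1, the RNA component of RNase P, was 0.55 ± 0.10 higher in NRG1 with BaP and 0.50 ± 0.13 lower with NNK (-0.497). CYP1B1 fell by 0.52 ± 0.07 with BaP and by 0.34 with CSC and was at 0.21 with NNK. RNR2, the mitochondrial large ribosomal RNA, had 6980, 7510 and 9890 CPM in NRG1-NNK against 4780, 5200 and 4920 CPM in HcRed-NNK, with no overlap. SNORD76, a small nucleolar RNA of the GAS5 host gene, had 11.7, 7.5 and 5.34 CPM in NRG1-NNK against 24, 25.9 and 23 CPM in HcRed-NNK. It was higher in NRG1 with CSC, where it stood at 71, 48.5 and 47 against 34.4, 26.9 and 30.7 CPM. The histone genes HIST1H4J and HIST1H4D, with LSM4, were higher with BaP, and ANKRD26, FAM199X and KIF20B were lower. HIST1H4J, HIST1H4D, RPPH1, RNR2 and SNORD76 had no GC content in the annotation used, so the correction was not applied to them.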

How the data were processed

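SFL libraries of AALE cells were sequenced as single reads, and the authors trimmed adapters (cutadapt 1.12), aligned them to hg19 with STAR 2.5.2b, and used featureCounts to count them per RefSeq gene. The authors deposited these counts per gene and sample without normalization, and the counts are the only unit used here. The strand setting is not given in the sources used here. Condition and replicate number came from the labels. Counts were TMM-normalized (edgeR 4.0.16, R 4.3.3) and fitted with limma-voom (limma 3.58.1, empirical Bayes, 2-sided, Benjamini-Hochberg over all 14210 genes with a mean count above 1, threshold 0.05). The fit over 3 chemicals held 18 samples with chemical as covariate, the fit with DMSO 24 and the fit with other lines 44. CPM printed for samples used TMM factors of the 24 samples. DESeq2 1.42.0 and edgeR's quasi-likelihood test were alternatives, with other filters, a replicate block, a GC and length correction (loess span 0.3) and leaving out each library.

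The genes named are NRG1, the ERBB receptors and their ligands listed with it, and the 12 largest rises and falls over the 3 chemicals among called genes averaging 10 or more reads whose lines did not overlap in any chemical. Also named are the 5 largest effects in each direction for 1 chemical only, and the 4 most changed called members of each list. Some genes that met this rule are not reported here. Other genes in the text are list members or were picked after their values were seen. Members and lists were chosen with earlier results of these data known. Replicate pairs had a Pearson correlation of log2 CPM of 0.942 to 0.978 and differed by more than sampling noise. Counting floors cover counting error only. The fits were tested on simulated counts. Of listed symbols 24309 (86.9%) matched GENCODE models on GRCh37. Promoters are from RefSeq on GRCh38.p14, matched by symbol.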

Additional observations from a re-analysis of the deposited data

Results flagged for a closer look

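These counts and genes were set apart because the NRG1 effect differed between chemicals by the test of the difference itself. The interaction test called 14 genes, the BaP difference 25 and the NNK difference 7. On the log2 scale, as the effect in that chemical minus the mean of the other chemicals, the named genes with BaP were HIST1H4J (1.06), RPPH1 (0.799), HIST1H4D (0.758), LSM4 (0.71), ANKRD26 (-0.879), FAM199X (-0.695), KIF20B (-0.635) and CYP1B1 (-0.455). With NNK they were RNR2 (0.549), SNORD76 (-2.31), RPPH1 (-0.775) and KRT19 (-0.46). Under the GC and length correction CYP1B1 was at -0.355 (adjusted p = 0.379) and LSM4 at 0.487 (adjusted p = 0.379, limma-voom).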

How the results depend on the processing

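With 432015 to 1641129 reads per sample, genes of a few CPM rest on few reads. Of the recomputed values of named genes, 2212 kept direction and side of the threshold, 292 kept the direction but not the call, and none reversed. The count of 907 genes over 3 chemicals stayed within 1.5 times under each alternative. For other counts, edgeR called 1 gene for the CSC difference and 3 for carcinogens against DMSO. DESeq2 called 82 genes with CSC, 179 with BaP, 106 with NNK, 81 with DMSO, 33 in common, and 1 each for the BaP difference, the NNK difference and the interaction. Without a filter the BaP and NNK differences called 13 and 4. Under the GC correction the BaP difference called 1, the NNK difference 2 and the interaction 4, and the same genes uncorrected gave 3 for the NNK difference. Fits of only the 6 samples compared called 319 with CSC, 204 with BaP and 281 with DMSO. Without HcRed-BaP replicate 3 and HcRed-NNK replicate 3 together, chosen after seeing the data, the BaP difference called 46 and the interaction 23.

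The replicate numbers did not pair the lines, with correlations of deviations from -0.124 to 0.0992. With the number as a replicate block, the counts were 843 over 3 chemicals, 1 for the CSC difference, 57 for the BaP difference, 44 for the interaction and 1 for carcinogens against DMSO. With block and GC correction they were 4 for the CSC, 3 for the BaP and 4 for the NNK difference, 8 for the interaction and 1 for carcinogens against DMSO.

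Leaving out each library in turn gave 677 to 948 genes over 3 chemicals, 68 to 254 with CSC, 185 to 735 with BaP, 68 to 254 with NNK and 35 to 54 in common. It gave 0 to 2, 3 to 530 and 0 to 45 for the CSC, BaP and NNK differences, 7 to 338 for the interaction, 80 to 182 with DMSO, 0 to 2 for carcinogens against DMSO and 3302 to 3874 against the other lines. The cause of these shifts was not tested.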
